A study of Mus musculus with 7 samples.

Results

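The miR-34 family was followed in mouse kidney through 4 of the 696 miRNAs on the array, namely mmu-miR-34a, mmu-miR-34b-5p, mmu-miR-34b-3p and mmu-miR-34c, chosen by their names in the array files. Kidneys of male C57BL/6 mice, 9 to 12 weeks old, were taken at day 28 after ligation of the left ureter (unilateral ureteral obstruction, UUO, a surgical model of kidney fibrosis) or after a sham operation, in which the ureter was exposed but not tied. Whole-kidney RNA, carrying the dye Cy3, was measured on 7 Agilent miRNA arrays of 1 colour, 4 labelled non-treated (replicates 1 to 4) and 3 labelled treated (replicates 1, 3 and 4). The comparison asks which kidney miRNAs differ between obstructed and sham kidneys. The labels do not say which of them treated stands for. With the labels taken as given, all 50 miRNAs of the study's own table, which holds no miR-34 member, differ in the opposite direction. Which arrays came from obstructed kidneys is therefore not settled. All differences below are labelled treated minus labelled non-treated. The study describes a group of mice behind each label, but no label ties an array to a mouse, so p-values measure the spread between these arrays, which may be partly technical.

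MiR-34 miRNAs are known as direct transcriptional targets of p53, the transcription factor that is activated by DNA damage. They bind mRNAs of cell cycle and survival genes such as Cdk6, Ccnd1 and Bcl2, and in many cell types they accumulate during cell cycle arrest and senescence. MiR-34a has a locus of its own and is widely expressed, whereas miR-34b and miR-34c are processed from a shared primary transcript and are best known from cells that carry many motile cilia. In RefSeq (GRCm38.p6), the Mir34a hairpin lies at chr4:150068454-150068555 on the plus strand. The Mir34b hairpin at chr9:51103562-51103645 and the Mir34c hairpin at chr9:51103034-51103110 lie on the minus strand, 451 bases apart, within the annotated spans of Btg4 and Hoatz.

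The mature sequences that were found show which members share a seed and which do not. Capitals mark the seed, bases 2 to 8, through which a miRNA pairs with its targets. RefSeq held an entry for 3 of the 4 members, the array's miR-34a being taken as the 5p strand, and miR-34c is named only. The entries with the seed of miR-34a and miR-34b-5p, including those of the related miR-449 cluster, were as follows.
mmu-miR-34a-5p (chr4:150068473-150068494): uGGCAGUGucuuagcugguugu
mmu-miR-34b-5p (chr9:51103610-51103632): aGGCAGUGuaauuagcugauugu
mmu-miR-449a-5p (chr13:113037549-113037570): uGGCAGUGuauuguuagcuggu
mmu-miR-449c-5p (chr13:113036008-113036028): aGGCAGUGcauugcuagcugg

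The opposite strands from chromosome 9 carry another seed, shared by miR-34b-3p and the strand the array calls miR-34c*.
mmu-miR-34b-3p (chr9:51103574-51103595): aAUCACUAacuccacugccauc
mmu-miR-34c-3p (chr9:51103044-51103065): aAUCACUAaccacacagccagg

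Read from the 5′ end without gaps, miR-34a and miR-34b-5p were identical at 11 of 22 bases. MiR-34a and miR-449a were identical at 15 of 22, and miR-34b-3p and miR-34c-3p at 17 of 22. MiR-34b-5p has 23 bases and miR-34a has 22, and an ungapped count misses bases that match after a shift. These counts therefore do not rank how closely the miRNAs are related.

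Signals of miRNAs differed between the arrays before any scaling. The number of miRNAs that Agilent's software called detected was 232 to 282 per array in the non-treated group and 193 to 214 in the treated group. Over the 186 miRNAs detected on every array, the mean log2 signal was between 6.65 and 7.52 on the former and between 5.79 and 6.42 on the latter. Non-treated replicate 3 stood apart from its group at 6.65, the other 3 lying between 7.40 and 7.52. Spike-in controls moved the same way, with a mean log2 signal of 11.34 to 12.0 on the arrays labelled non-treated and 10.97 to 11.54 on those labelled treated. Each array was therefore scaled to this mean over 186 miRNAs and signals under a log2 level of 2.75, the floor, were raised to it. All arrays shared 1 slide and 1 scan and no spot was saturated. With 7 arrays in all, their number sets the precision.

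Of the 4 members, 3 were detected on all 7 arrays and were tested, and miR-34b-3p was detected on none. MiR-34c was lower on the arrays labelled treated, miR-34b-5p was lower in mean but did not pass the threshold, and miR-34a differed by less than its error. With an adjusted p under 0.01 by limma, 1 of the 3 tested members passed, against 129 of all 236 miRNAs tested (54.7%). Over all tested, 73 were lower on the arrays labelled treated (30.9%) and 56 were higher (23.7%). A split of 7 higher and 162 lower was found without scaling between arrays, and of 73 higher and 46 lower with scaling by the 75th percentile of all miRNAs.

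MiR-34a, the member with a locus of its own, had log2 scaled signals of 8.83, 8.71, 8.75 and 8.76 on non-treated replicates 1 to 4. On treated replicates 1, 3 and 4 they were 8.65, 8.84 and 8.85. The groups overlapped, the lowest and the highest of the 7 arrays both being labelled treated. The means were 8.76 ± 0.05 (SD, n = 4) and 8.78 ± 0.11 (SD, n = 3), a difference of 0.015 with a standard error of 0.062 (limma adjusted p = 0.866). The 95% interval of this difference, from -0.14 to 0.17, bounds a change of miR-34a in either direction under this scaling. The exact 2-sided permutation test over arrays gave p = 0.8, and the smallest p that 35 splits allow is 0.0571.

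MiR-34a was strong on every array, with all 20 of its spots (2 probes with 10 spots each) well above background each time. Before scaling, its summed signal was 714, 715, 404 and 685 on non-treated replicates 1 to 4 and 247, 366 and 238 on treated replicates 1, 3 and 4. These unscaled signals did not overlap between the groups, and the difference that scaling removes decides where no change lies. Under 6 other scalings the difference of miR-34a ranged from -1.14 to 0.26 and was below 0 under 5 of them, 4 of which passed the threshold. With the mean over all miRNAs in place of those detected on every array, it was -0.87 (limma adjusted p = 3.73e-05). Relative to the median of all tested miRNAs under the same scaling it ranged from -0.12 to 0.17, against 0.08 as reported. Except quantile normalization (-0.12), these scalings take a constant per array, which cancels from this quantity apart from the floor. Their agreement was thus largely fixed in advance. MiR-34a lay near the middle of the tested miRNAs while its sign followed the scaling.

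MiR-34c, one of the members from chromosome 9, had log2 scaled signals of 4.33, 4.07, 4.06 and 4.23 on non-treated replicates 1 to 4. On treated replicates 1, 3 and 4 they were 3.41, 3.56 and 3.40. All 3 arrays labelled treated lay below all 4 labelled non-treated, with a gap of 0.50 between the groups. Groups without overlap were found for 156 of the 236 tested miRNAs (66.1%), and for 85 with the lower signal on the arrays labelled treated (36.0%). The means were 4.17 ± 0.13 (SD, n = 4) and 3.46 ± 0.091 (SD, n = 3). The difference of -0.72 (standard error 0.083, limma adjusted p = 0.000335) corresponds to a level 1.64-fold higher on the arrays labelled non-treated. The exact permutation test gave p = 0.0571, its smallest possible value. In whole kidney, fewer cells that make a miRNA and less of it per cell cannot be told apart.

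The difference of miR-34c lay below 0 and passed the threshold under all 6 other scalings, from -1.87 to -0.47. Relative to the median of all tested miRNAs it was -0.66 as reported and from -0.67 to -0.41 under these scalings. Only quantile normalization (-0.41) does more than subtract a constant per array, which cancels from this quantity apart from the floor. It did not pass in the deposited value table, which holds 1 spot per probe and was used without treated replicate 4 (-0.40, limma adjusted p = 0.214), nor with normexp at an offset of 50, where it was 0.012 (limma adjusted p = 0.364). Without non-treated replicate 3 it was -0.78 (limma adjusted p = 0.000934).

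MiR-34b-5p, from the same primary transcript as miR-34c, had log2 scaled signals of 4.80, 4.60, 4.15 and 4.67 on non-treated replicates 1 to 4. On treated replicates 1, 3 and 4 they were 3.85, 4.17 and 3.95. The groups overlapped through a single pair, non-treated replicate 3 at 4.15 and treated replicate 3 at 4.17. The means were 4.55 ± 0.29 (SD, n = 4) and 3.99 ± 0.16 (SD, n = 3). The difference of -0.57 (standard error 0.17, limma adjusted p = 0.0239) did not pass the threshold, and the exact permutation test gave p = 0.114. Its 95% interval ran from -0.98 to -0.15. Leaving out non-treated replicate 3, the array with the weakest signal of its group, gave -0.73 (limma adjusted p = 0.00253), which passed. With any other array left out it did not pass (limma adjusted p from 0.0322 to 0.0847), nor with no filter on dim miRNAs (limma adjusted p = 0.127). Under 6 other scalings the difference was below 0 each time, from -1.72 to -0.32, and passed under 4 of them.

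MiR-34b-3p, the opposite strand of the Mir34b hairpin, was not detected on any array. None of its 80 spots on the arrays labelled non-treated and none of its 60 on those labelled treated was well above background. Its summed signal before scaling lay between -0.0451 and 0.429 on the former and between -0.547 and -0.169 on the latter. The weakest positive signal of a detected miRNA was between 1.94 and 4.27 on these arrays, so both groups have only an upper bound for miR-34b-3p and no fold is given. The detection call of the Mir34b hairpin therefore came from its 5p strand.

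**Figure D1:**
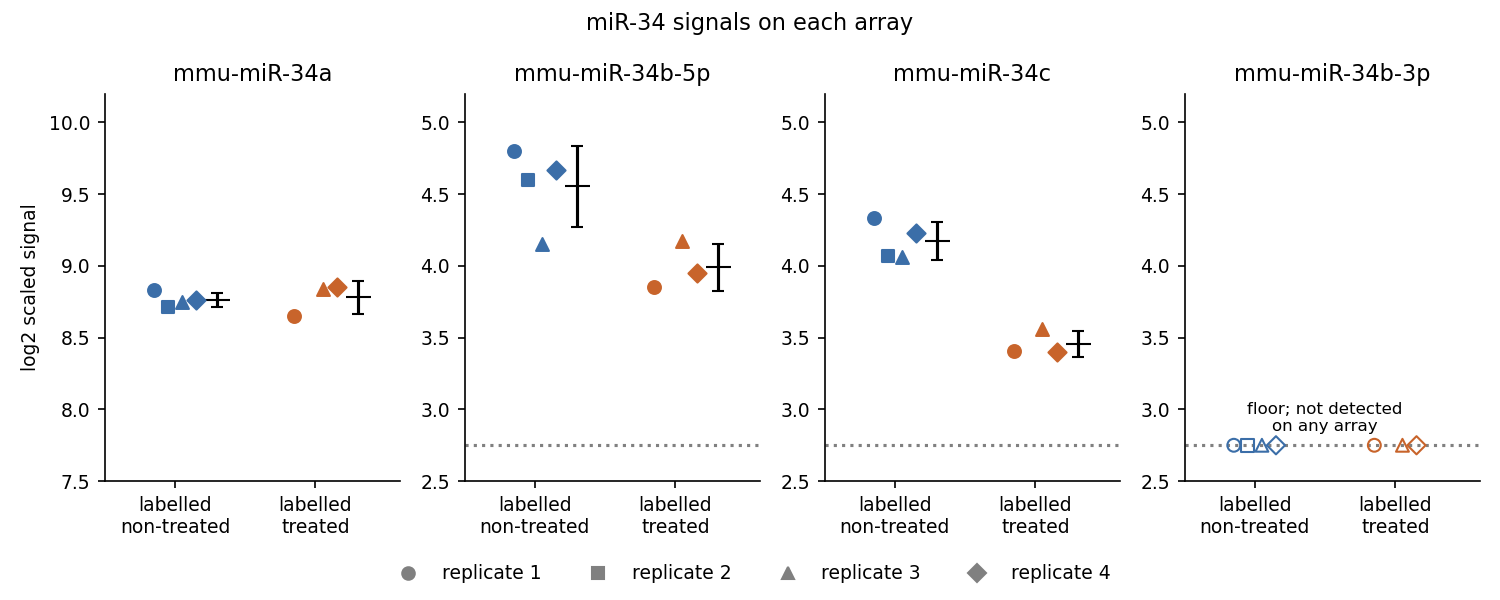
Log2 scaled signal of each miR-34 member on each array, by group label. Marker shapes give the replicate number, black bars the mean ± SD (n = 4 and n = 3), the dotted line the floor at 2.75 and open markers signals raised to it. The axis of miR-34a covers another range but the same span as the others. MiR-34a overlapped between the labels, miR-34c did not, and miR-34b-5p overlapped only through both arrays numbered 3.

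The remaining array miRNAs found to share a seed with a member, among the 528 of 696 names with a RefSeq sequence, were also below detection. MiR-34c* was not detected on any of the 7 arrays, with 0 of 80 spots well above background on the arrays labelled non-treated and 2 of 60 on those labelled treated. MiR-449a and miR-449c, and miR-449b of the same cluster, which are abundant in multiciliated cells, were not detected on any array either. The seed of miR-34a was thus detected in these kidneys in miR-34a and miR-34b-5p, and miR-34c is known to share it. Signals of different miRNAs on such arrays depend on their probes, so that no member's level can be set against another's.

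The change, unlike the level, can be set side by side within each array, and here the loci on chromosome 4 and chromosome 9 are compared. The log2 signal of miR-34a minus that of miR-34c lay between 4.50 and 4.69 in the non-treated group and between 5.24 and 5.45 in the treated group. The groups did not overlap, and the change of miR-34a exceeded that of miR-34c by 0.73 (standard error 0.077). Scaling by a constant per array cancels in this quantity. For miR-34a minus miR-34b-5p the ranges were 4.03 to 4.61 and 4.67 to 4.90, and the changes differed by 0.58 (standard error 0.17), again without overlap. Of single tested miRNAs, 66.1% had groups without overlap, and the share over other pairs of miRNAs was not computed. Lack of overlap therefore does not set these pairs apart. Both pairs gave an exact 2-sided permutation p of 0.0571, the smallest possible, and 0.0857 after Benjamini-Hochberg adjustment over the 3 pairs compared, so this exact test cannot bring the comparison under 0.05 with these arrays. Under quantile normalization, which is no constant per array, the changes differed by less, by 0.29 for miR-34a and miR-34c and by 0.12 for miR-34a and miR-34b-5p (exact permutation p = 0.571).

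The chromosome 9 members differed from each other by less. MiR-34b-5p minus miR-34c lay between 0.09 and 0.53 in the non-treated group and between 0.44 and 0.61 in the treated group. Their changes differed by 0.15 (standard error 0.13, exact permutation p = 0.229, also 0.229 after adjustment), and the groups overlapped. With this error the values do not show that the members from chromosome 9 changed alike.

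Agilent printed a pair of probes for each member, and only for miR-34a were all spots of both probes well above background. For miR-34a, probe A_54_P2499 carried between 74.7% and 77.8% of the summed signal, and the log2 ratio of group means, treated over non-treated, was 0.01 for it and 0.05 for probe A_54_P2498. For miR-34b-5p the ratio was -0.58 for both A_54_P2445 and A_54_P2446, the former with 7 of 30 spots well above background on the arrays labelled treated and signals of 2.99 and 2.84 on replicates 1 and 4, below the weakest detected miRNA of these arrays. For miR-34c, probe A_54_P1248 carried 80.7% to 89.8% of the signal, with a ratio of -0.70. Its other probe, A_54_P1247, had 11 of 40 spots well above background on the arrays labelled non-treated and 0 of 30 on those labelled treated, so that it gives only a bound there.

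The chromosome 9 members were near the lower end of what the arrays measured. Over both probes, miR-34c had 51 of 80 spots well above background on the arrays labelled non-treated and 23 of 60 on those labelled treated. MiR-34b-5p had 75 of 80 and 31 of 60. Their summed signals before scaling were 15.6 to 31.5 and 5.42 to 9.43 for miR-34c, and 16.6 to 43.8 and 7.93 to 14.4 for miR-34b-5p. The part of this dimness in the differences was not tested. Among 43 other miRNAs detected on every array whose mean log2 level lay in the same range (3.40 to 4.80), 13 were lower and 13 were higher on the arrays labelled treated, with a median difference of -0.15. Over all tested, 30.9% were lower and 23.7% were higher.

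**Figure D2:**
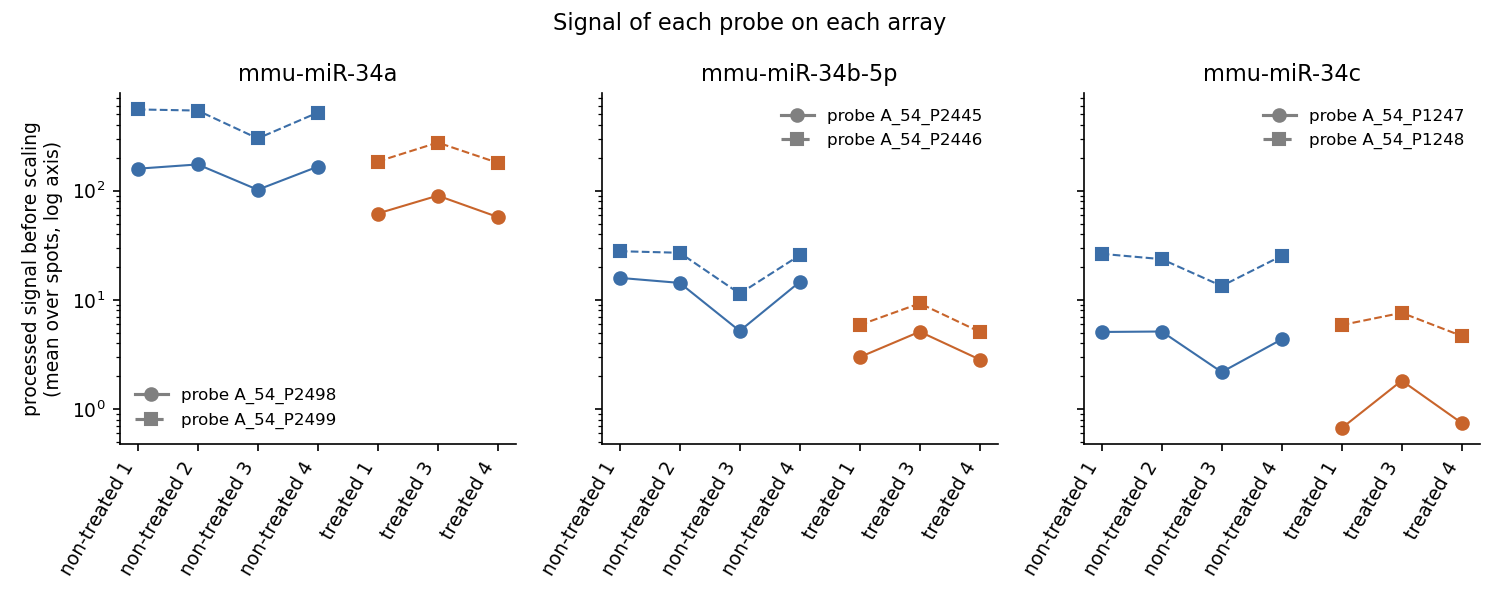
Processed signal before scaling of both probes of miR-34a, miR-34b-5p and miR-34c on each array (mean over the spots without outlier flags, log axis). Blue marks arrays labelled non-treated and orange those labelled treated, with 1 line style per probe. Signals before scaling also follow the brightness of each array, so a shared course of both probes does not show that they agree. For miR-34c, probe A_54_P1247 stayed under 2 on the arrays labelled treated.

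Array position on the slide was read as a further batch, because arrays lay in 2 rows. Row 1 held 2 arrays labelled non-treated and 1 labelled treated, and row 2 held 2 of each. MiR-34c was lower on the arrays labelled treated in both rows, at -0.79 and -0.67, and with the row as a block the difference was -0.72 (limma adjusted p = 0.00129). MiR-34b-5p differed by -0.85 in row 1 and -0.35 in row 2, and by -0.55 with the block (limma adjusted p = 0.0437). MiR-34a differed by -0.12 and 0.09, with opposite signs in the rows, and by 0.0029 with the block (limma adjusted p = 0.993).

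Among all 236 tested miRNAs, the differences ranged from -3.27 to 3.24 with a median of -0.061. Counted from the most negative, miR-34c ranked 51, miR-34b-5p ranked 61 and miR-34a ranked 141. The members therefore lay well inside the range of differences that these labels separate.

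Other miRNAs linked to p53 differed in direction. This list and those after it were chosen with earlier results of these data known, so their counts are descriptions and no test. Of 10 tested miRNAs reported as p53-induced or p53-processed, 4 were higher, 2 were lower and 4 did not pass, with a median difference of 0.21 against -0.061 over all tested. Of all tested, 23.7% were higher and 30.9% lower. The highest were miR-192 at 3.24 (standard error 0.23) and miR-194 at 2.92 (standard error 0.14), which are also abundant kidney tubule miRNAs. MiR-107 was higher by 1.55 (standard error 0.092) and miR-22 by 0.91 (standard error 0.076). MiR-143 at -1.05 (standard error 0.093) and miR-145 at -0.82 (standard error 0.067), which are smooth muscle miRNAs whose processing p53 can aid, were lower. MiR-15a, miR-16, miR-200c and miR-141 gave values from -0.12 to 0.33 and did not pass.

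Listed members of the cluster that holds miR-17 and miR-92a, which p53 is known to repress, mostly stayed near 0. MiR-17 was detected on 2 of the 7 arrays and was not tested. MiR-17*, outside the list, was lower at -0.66 (standard error 0.14, limma adjusted p = 0.00676). Of 5 listed miRNAs tested, 1 was lower, miR-18a at -0.55 (standard error 0.092, limma adjusted p = 0.00198), against 30.9% lower of all tested. The other 4 did not pass, and the median was -0.04. Of 3 tested miRNAs that target p53 mRNA, all passed, in differing directions, against 54.7% of all tested. MiR-125b-5p was lower at -1.43 (standard error 0.11), miR-25 was lower at -0.28 (standard error 0.062) and miR-30d was higher by 0.51 (standard error 0.11). The median of these 3 was -0.28.

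Of 7 tested miRNAs on a list linked to senescence, 5 were lower on the arrays labelled treated and 2 did not pass. Their median was -0.92, and 30.9% of all tested were lower. The list was chosen with earlier results of these data known, so its share describes the list and is no test. MiR-31 was lower at -2.72 (standard error 0.10), and miR-146a, which dampens inflammatory signalling and rises in the secretory phase of senescence, at -2.02 (standard error 0.084). MiR-146b, also counted among the 5, was not detected on any array labelled treated and was tested only through its detection on the others. Against the weakest detected signal of each array labelled treated, before the common floor, its level was at least 6.9-fold higher on the arrays labelled non-treated. Its limma adjusted p of 3.59e-06 comes from treated signals all raised to the floor, and does not measure this bound. MiR-181a at -0.92 (standard error 0.15) and miR-24 at -0.60 (standard error 0.052) were also lower. MiR-128 had 0.19 and miR-29a 0.28, and neither passed. Family members outside the list went both ways. MiR-29b at 1.18 and miR-29c at 1.49 were higher, and miR-181b at -0.52, miR-181c at -1.24 and miR-181d at -1.65 were lower. MiR-146a is also abundant in leukocytes. Under the other scalings the values of these lists shift with the median of all tested miRNAs, which moved from -1.20 to 0.09.

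**Figure D3:**
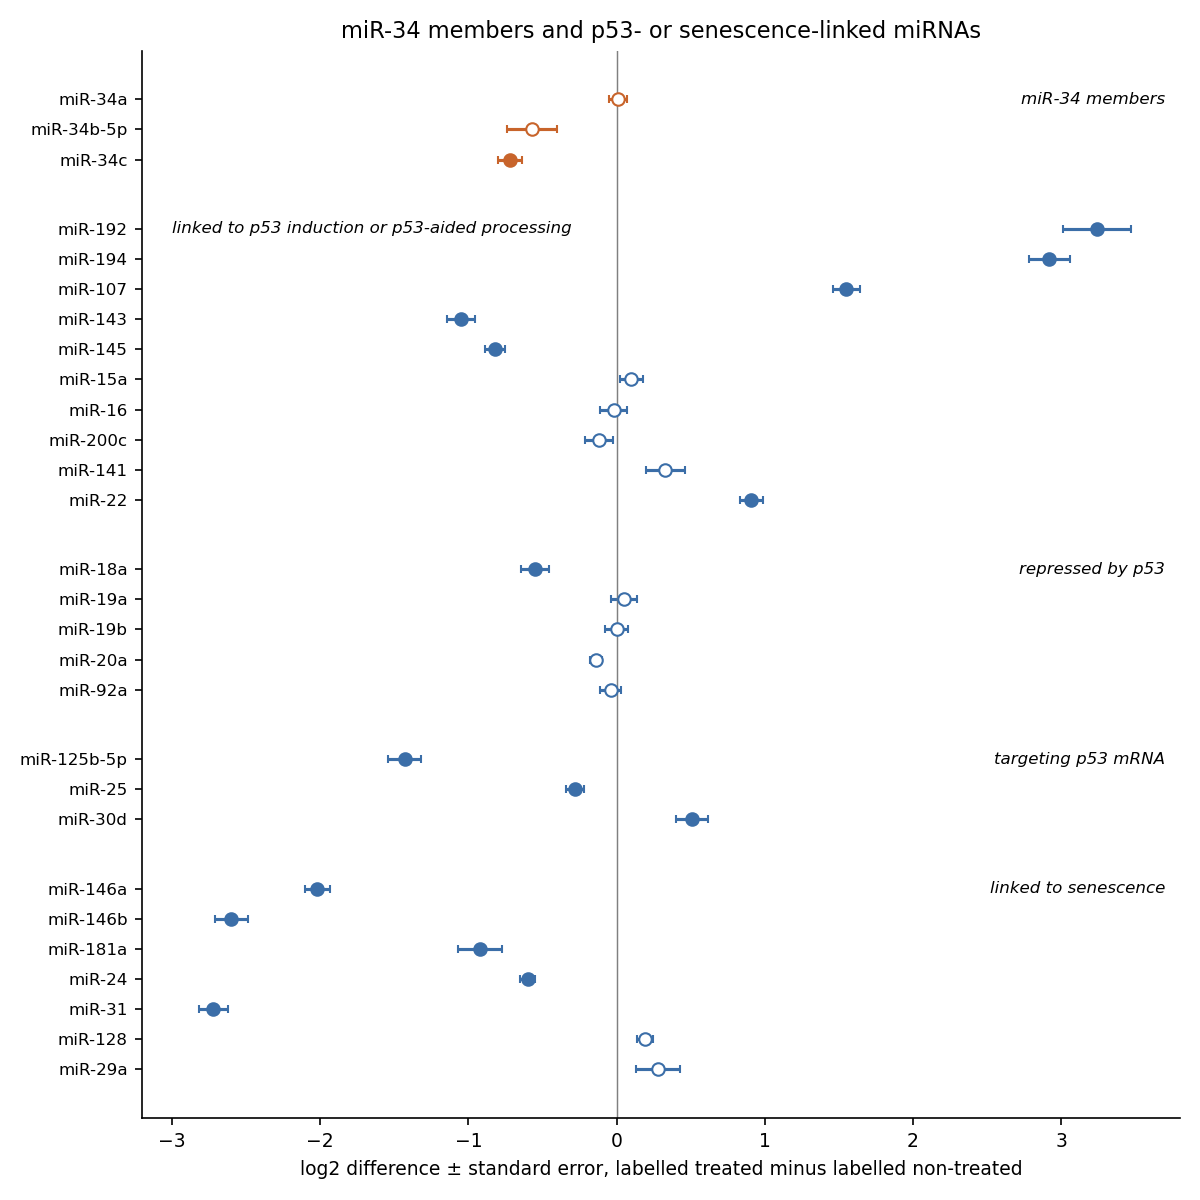
Log2 difference ± standard error, labelled treated minus labelled non-treated, of the tested miR-34 members (orange) and of tested miRNAs linked to p53 or senescence (blue). Filled points passed an adjusted p under 0.01. The lists linked to p53 hold values on both sides of 0, and 5 of the 7 senescence-linked miRNAs lie below 0 and passed, against 30.9% of all tested. The lists were chosen with earlier results of these data known.

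Cell type markers moved with the labels beside miR-34c. Their counts stand against 30.9% lower and 23.7% higher on the arrays labelled treated among all tested miRNAs. The kidney was seen in miR-192, miR-194 and miR-204, each detected on all 7 arrays, while miR-215 was detected on none. All 6 leukocyte markers were lower on the arrays labelled treated, and their summed scaled signal ranged from 1400 to 1780 on the arrays labelled non-treated and from 339 to 352 on those labelled treated. All 3 mesenchymal markers (miR-199a-3p, miR-199a-5p and miR-214) were lower, with sums of 2120 to 2510 and 395 to 410, and both smooth muscle markers were lower, with sums of 335 to 410 and 163 to 195. Of 5 epithelial markers 3 were higher and 2 did not pass, with sums of 1530 to 1950 and 2800 to 3010. Of 3 tested tubule markers 2 were higher and 1 lower, with sums of 244 to 415 and 2210 to 2370. Both red cell markers on the array were higher, with sums of 1080 to 2330 and 4610 to 5120, and both endothelial markers did not pass, with sums of 1770 to 1960 and 1780 to 1900. The multiciliated cell markers miR-449a, miR-449b and miR-449c were undetected on all arrays. The part of these cell types in the miR-34 values was not tested.

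The array-to-array pattern of the members is described by Pearson's r over the 7 arrays, among miRNAs detected on every array. For miR-34a the closest were miR-149 (r = 0.628), miR-103 (0.628) and miR-126-3p (0.527). For miR-34c they were let-7i (0.985), miR-100 (0.983) and miR-31 (0.982), all lower on the arrays labelled treated. For miR-34b-5p they were miR-195 (0.932), miR-497 (0.923) and miR-34c (0.904). In the other direction, miR-34b-5p ranked only 41 among the miRNAs closest to miR-34c. MiR-34a had r = 0.035 with miR-34c and 0.178 with miR-34b-5p.

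With the mean of each group subtracted, so that the label no longer counts, miR-34b-5p and miR-34c had r = 0.812. By this measure miR-34c ranked 13 for miR-34b-5p, and miR-34b-5p ranked 5 for miR-34c. MiR-34a had r = 0.521 with miR-34c and 0.446 with miR-34b-5p. The closest were then miR-195 (0.969), miR-532-5p (0.961) and miR-155 (0.931) for miR-34b-5p, and miR-31 (0.926), let-7i (0.868) and miR-99a (0.859) for miR-34c. For miR-34a they were miR-185 (0.948), let-7d (0.784) and miR-33 (0.762). All of these points share the 7 arrays and their scaling, and no p is given.

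The differences of the tested members under each way of processing are shown together, because scaling moves them more than the choice of array does. Leaving out each array in turn kept miR-34c between -0.78 and -0.66, always past the threshold. It kept miR-34b-5p between -0.73 and -0.48, past the threshold only without non-treated replicate 3.

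**Figure D4:**
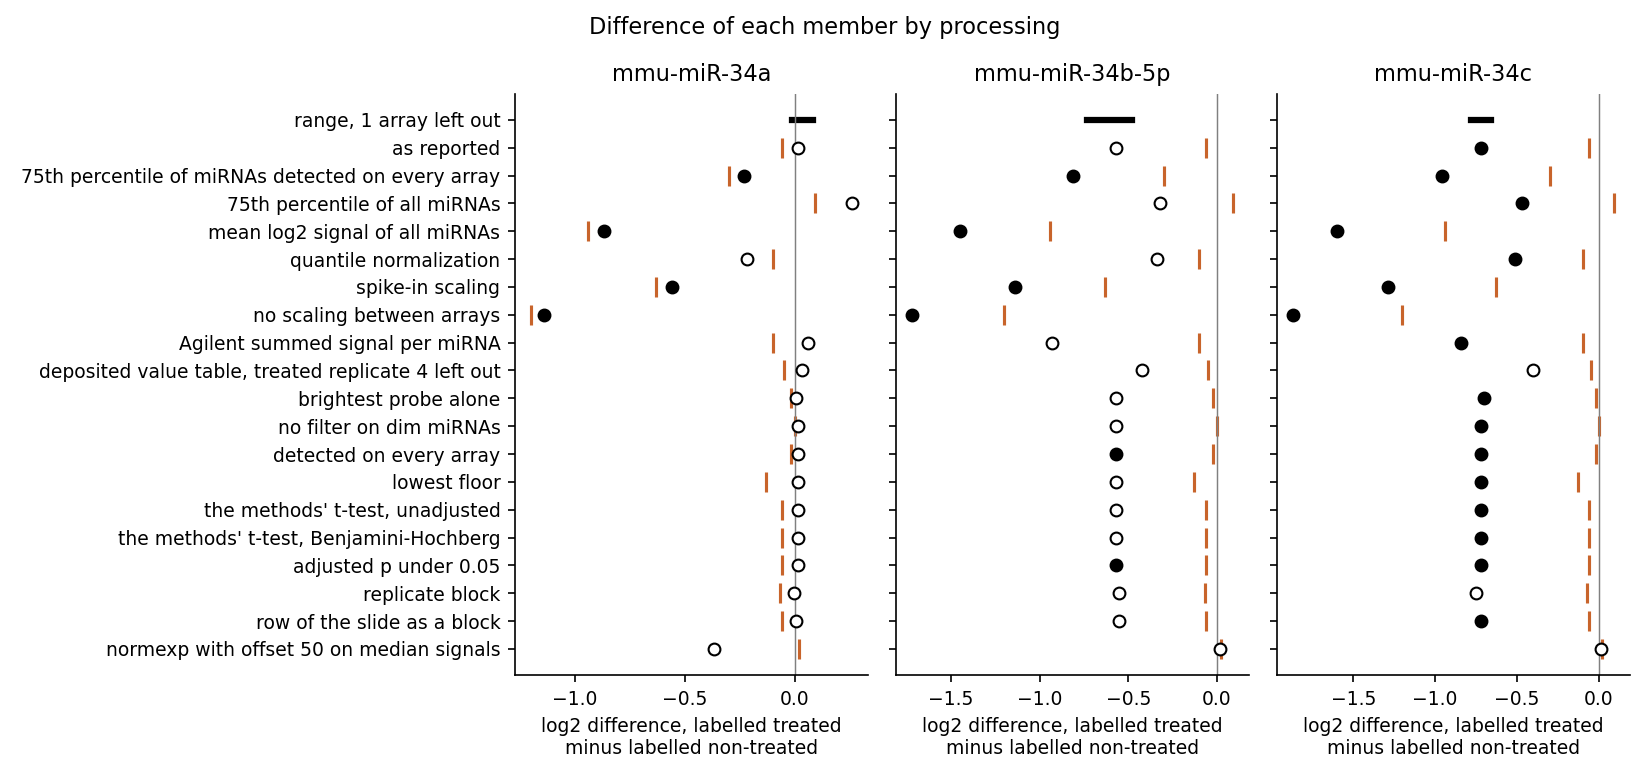
Log2 difference, labelled treated minus labelled non-treated, of miR-34a, miR-34b-5p and miR-34c under each processing alternative. Filled points passed the threshold of that alternative, orange ticks give the median of all tested miRNAs under it, and the thick black line the range when 1 array was left out. Except with normexp, miR-34a stays close to the ticks and miR-34b-5p and miR-34c lie to their left.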

How the data were processed

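Per the file headers, the authors deposited the output of Agilent Feature Extraction 10.7.3.1 for 7 arrays, where a spot's processed intensity is linear, corrected for background and not yet normalized across arrays. An array carries 13920 spots, 1937 probes and 696 miRNAs. A deposited value table, also of intensity, repeats the first spot of each probe for 6 arrays (equal within a relative tolerance of 1e-05) and holds error estimates for treated replicate 4.

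Processed intensities were averaged per probe over spots without outlier flags and summed per miRNA. Each array was scaled to its mean log2 over 186 miRNAs that every array detected. The methods name an array mean but not the miRNAs in it, and the mean over all miRNAs was an alternative. The floor (log2 2.75) was the highest over arrays of the lowest scaled signal of a detected miRNA, leaving out 1 detected miRNA with a summed signal below 0. The groups were compared with limma 3.58.1 (R 4.3.3) for 236 miRNAs that all arrays of either group detected, at a Benjamini-Hochberg adjusted p below 0.01. Python 3.11.15 ran the other steps. Exact permutation tests were 2-sided, as 2 times the smaller tail share. Tested on simulated data for this comparison, the fit recovered 59 of 60 log2 changes of 1.5 among 236 miRNAs, with 0 false calls. These changes were balanced in direction and larger than those of the members, so the simulation tests neither the scaling nor changes of the members' size. Arrays of a group differed by 1.55 to 3.71 times the SD expected from their spots, which does not show that they are independent samples, and each was counted as a sample because the labels list it as one.

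Named are the members, their star strands and array miRNAs with their seed, the 3 closest miRNAs by each correlation, and tested miRNAs of the lists. Family members of miR-29a and miR-181a outside the lists, and miR-17*, were named after seeing the data. Members and lists were chosen with earlier results of these data known. Alternatives covered scaling, signal column, background, probes, filter, floor, test, threshold, blocks and each array left out. A block for the slide's rows and the value table without treated replicate 4 were chosen after seeing the data. Mature sequences came from RefSeq (GRCm38.p6), in which 528 of 696 array names matched. The array files name another build, mm9, whose coordinates were not used.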

Additional observations from a re-analysis of the deposited data

Results flagged for a closer look

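Non-treated replicate 3 lay far from the other 3 arrays of its group in signals before scaling. Its summed signal was 404 for miR-34a against 685 to 715 on the others, and 16.6 for miR-34b-5p against 40.2 to 43.8. The mean log2 signal over the 186 miRNAs common to all arrays was 6.65 against 7.40 to 7.52. In each case the gap to the nearest array, divided by the range of the group, was above Dixon's 95% critical value of 0.829 for 4 samples (0.901, 0.866 and 0.862). Of 8 quantities tested 3 passed, where chance gives about 1 in 20, and these 3 share the array. After scaling no member passed, the ratio for miR-34b-5p being 0.684.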

How the results depend on the processing

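MiR-34a changed sign with scaling by the 75th percentile of miRNAs detected on every array (-0.23), by the mean of all miRNAs (-0.87), by quantiles (-0.22) and by spike-in controls (-0.56), without scaling (-1.14), and with normexp on median signals with an offset of 50 (-0.37). It passed the threshold under the percentile, the mean of all miRNAs, the spike-in controls and without scaling. With 1 array left out it ranged from -0.015 to 0.081. MiR-34b-5p passed the threshold with scaling by that percentile (-0.81), by the mean of all miRNAs (-1.45), by spike-in controls (-1.14) and without scaling (-1.72), and at its reported -0.57 over miRNAs detected on every array (adjusted p = 0.0076) or at an adjusted p under 0.05. With 1 array left out it ranged from -0.73 to -0.48. MiR-34c no longer passed in the deposited value table without treated replicate 4 (-0.40). Under normexp both were near 0, at 0.016 and 0.012, where the offset of 50 exceeds their signals by construction. It also turned the difference of miR-34a from miR-34b-5p (-0.39) and from miR-34c (-0.38). The difference of miR-34b-5p from miR-34c turned with Agilent's summed signal (-0.088) and in the value table (-0.022). The number of miRNAs past the threshold was 196 with scaling by the mean of all miRNAs and 59 with normexp.

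Replicate numbers are shared between the labels, but deviations from the group means of same-numbered arrays correlated at -0.02, -0.02 and 0.19, and not every array was closest to its own number, so they were not taken as pairs. With the replicate number as a block, miR-34c was -0.75 (limma adjusted p = 0.0112) and did not pass. MiR-34b-5p was then -0.55 (limma adjusted p = 0.131), miR-34a was -0.003, and 94 miRNAs passed in place of 129. MiR-34b-3p has no value in any setting, since no array detected it. The value table as deposited was not run, because 1 column holds error estimates, nor normexp on mean signals, which the files used here do not hold. Signal over background limits miR-34b-5p and miR-34c, and 7 arrays limit every test.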

Other observations

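The deposited value table had column medians between 0.276 and 0.532 for the 6 arrays with processed intensities and of 1.001 for treated replicate 4, whose column holds error estimates. Its values were on the linear scale of the scanner files, with no centring or scaling.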
